A study of Gallus gallus with 9 samples.

Results

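Laminins and the basement membrane proteoglycans bound to them were followed through 8 genes measured in the chick retinal pigment epithelium (RPE), out of 16635 genes in the data. They were chosen by name: the laminin alpha chain genes *LAMA1*, *LAMA4* and *LAMA5*, the beta chain gene *LAMB1*, the gamma chain gene *LAMC1*, the nidogen gene *NID1*, and *HSPG2* and *AGRN*, which encode perlecan and agrin. All 8 were found and all 8 passed the filter on low values, a sum over the libraries of 20 normalized counts or more.

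The study asked what changes in the RPE soon after the neural retina is removed from the embryonic eye, with and without fibroblast growth factor 2 (FGF2), the factor under which chick RPE can turn into retina. The t-rRPE came from embryos 6 h after retinectomy at embryonic day 4 with no added factor. The rRPE came from embryos 6 h after retinectomy at the same day that had also received an FGF2-soaked bead, and only RPE close to the bead was captured. The reference was the intact RPE of embryonic day 4 with no surgery. Each group held 3 libraries, each from a different embryo. The p-values below weigh a group difference against the spread between libraries, in which embryo, laser capture and library preparation cannot be told apart. No group carried a transgene, and no group had a bead without FGF2 or surgery without retinectomy. The bead, capture close to it and FGF2 therefore cannot be told apart, and neither can the surgery and the loss of the retina. A collection time matched to the 6 h is not stated for the intact RPE, so time and retinectomy cannot be told apart either.

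A basement membrane is a thin sheet of extracellular matrix under an epithelium. Laminins are cross-shaped trimers of an alpha, a beta and a gamma chain that polymerize on the cell surface, held there by integrins and dystroglycan; nidogen ties the laminin net to the collagen IV net, and perlecan and agrin carry heparan sulfate chains that bind growth factors, FGF2 among them. The RPE rests on Bruch's membrane, of which its own basement membrane is the innermost layer.

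The libraries held 26167206 to 45563924 recovered reads, and 1 read was worth 0.768 to 1.303 normalized counts. The 15 RPE marker genes were all detected in every library. *MITF*, the pigment cell regulator, was lower in rRPE than in RPE (log2 fold change -1.78, adjusted p = 0.014 by limma). The 13 FGF response genes found of 14 summed to 25872 to 41164 normalized counts in rRPE, 10298 to 17272 in t-rRPE and 10301 to 11225 in RPE, and *SPRY1*, an FGF feedback gene among them, had a value of 2.79 in rRPE against t-rRPE (adjusted p = 0.39). Genes of the lens list stood apart: their summed normalized count was 49583, 411341 and 203422 in t-rRPE, 52609, 49807 and 23231 in rRPE, and 2002, 1232 and 1720 in RPE. A single gene, *ASL1*, gave 39430, 332972 and 160226 of the t-rRPE sums and most of each rRPE sum. Of the 16 list genes found, 1 in t-rRPE and 2 in rRPE had a negative fitted change against RPE, where 48.5% of all genes did. The paper proposes that stressed RPE may itself express such genes. RNA of lens tissue and expression of these genes by the RPE cannot be told apart here. The 7 genes found of 12 in the erythroid list, all for hemoglobin, summed to 145396 to 388559 in t-rRPE, 210375 to 533364 in rRPE and 275585 to 424441 in RPE. The 12 neural retina genes found of 15 summed to 9125 to 11638, 13568 to 19806 and 10695 to 15420 in that order. The part of these transcripts in the values below was not tested.

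No member was a differentially expressed gene (DEG) in any comparison, with a DEG needing, in limma, an adjusted p of 0.05 or less and a log2 fold change of 1 or more in either direction. In t-rRPE against RPE 0 of 8 members were called, where 0.671% of all genes were. In rRPE against RPE 0 of 8 were called, where 1.03% of all genes were. In rRPE against t-rRPE 0 of 8 were called, where 0.0544% of all genes were. With both retinectomy groups joined against RPE 0 of 8 were called, where 0.889% of all genes were. At these shares a list of 8 genes would seldom hold a DEG, so the counts of 0 are not a result about the members. Before adjustment, p was at most 0.05 for 0, 0 and 1 member (*NID1*) in the 3 pairwise comparisons in that order, and for *LAMA4* with both retinectomy groups together, where 12.4%, 12%, 9.31% and 13.1% of all genes were. edgeR and DESeq2 on the recovered reads also called 0 members in each comparison, and both gave an unadjusted p under 0.05 to *NID1* alone, in rRPE against t-rRPE. The 2 comparisons with RPE share its libraries, so their values are set side by side and not counted as separate support.

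**Figure D1:**
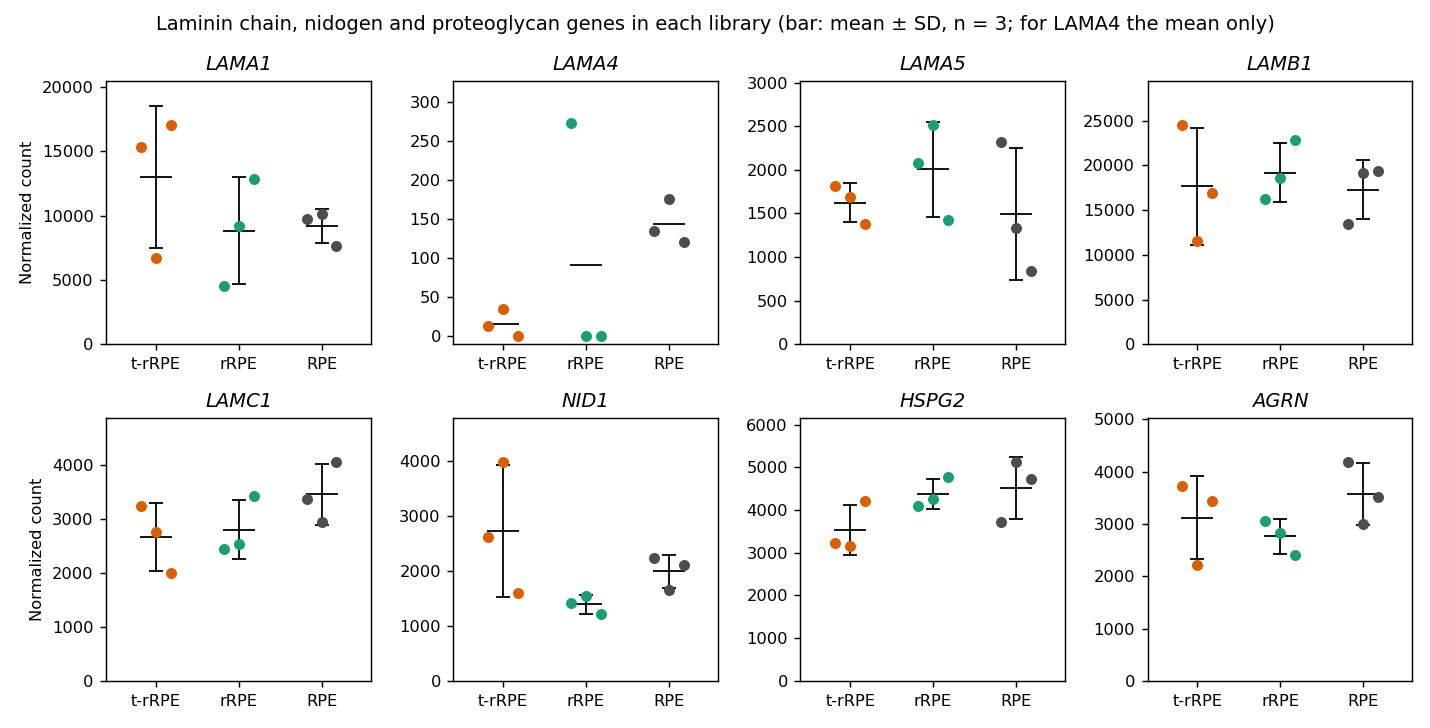
Normalized counts (vertical axes, linear, a separate scale for each gene) of the 8 genes in t-rRPE, rRPE and RPE; points are libraries in the order of replicates 1 to 3, and bars give the mean ± SD (n = 3), or the mean alone for *LAMA4*. *NID1* in the 3 rRPE libraries, 1216 to 1552, lies under all libraries of t-rRPE and RPE, and *LAMA4* is at 0 in 3 retinectomy libraries and at 272 in rRPE replicate 1.

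*LAMA1* encodes the alpha chain of laminin-111, the laminin of the earliest embryonic basement membranes. Its normalized counts were 15302, 6705 and 17047 in t-rRPE, 4489, 9154 and 12825 in rRPE, and 9729, 10101 and 7670 in RPE. Both retinectomy groups spread widely around the RPE libraries, with values on either side of them, and the groups overlapped in each comparison. The SD was 42.5% of the mean in t-rRPE and 47.4% in rRPE, against 14.3% in RPE. The fitted log2 fold change was 0.40 in t-rRPE against RPE (SE 0.39, adjusted p = 0.70) and -0.17 in rRPE against RPE (SE 0.39, adjusted p = 0.91). The value in t-rRPE was 0.83 without t-rRPE replicate 2 and 0.15 without t-rRPE replicate 3, and neither was called.

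*LAMA5* encodes the alpha chain of laminin-511, found under many mature epithelia. It stood at 1810, 1689 and 1372 normalized counts in t-rRPE, 2072, 2514 and 1425 in rRPE, and 2323, 1330 and 834 in RPE. Here the intact tissue was the most spread group, with an SD of 50.7% of its mean, and both retinectomy groups overlapped it. The log2 fold change was 0.51 in rRPE against RPE (95% confidence interval -0.27 to 1.29, adjusted p = 0.66) and 0.23 in t-rRPE against RPE (-0.55 to 1.02, adjusted p = 0.82). Without RPE replicate 3, the lowest library, these values became 0.15 and -0.12.

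*LAMA4* encodes an alpha chain known from the basement membranes of blood vessels, muscle and mesenchyme. It was the scarcest member and the one with the largest fitted change. Normalized counts were 11.9, 34.5 and 0 in t-rRPE (11, 37 and 0 reads), 272, 0 and 0 in rRPE (268, 0 and 0 reads), and 135, 175 and 121 in RPE (140, 224 and 157 reads). All RPE libraries thus held the transcript, 3 of the 6 retinectomy libraries held no read, and rRPE replicate 1 held more than any RPE library. A count of 0 allows up to 3 reads, which is 3.91 normalized counts in t-rRPE replicate 3 and 3.13 and 3.08 in rRPE replicates 2 and 3, for counting error only. In this bulk tissue, fewer cells of a type that makes the transcript and less RNA in each such cell cannot be told apart. Nor can either be told from loss of the transcript in laser capture or library preparation. The paper names low and degraded RNA yields as a limit of laser capture.

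The t-rRPE libraries lay under all RPE libraries for *LAMA4*, as did 7.83% of all genes in that comparison. The fitted log2 fold change there was -4.21 (95% confidence interval -8.92 to 0.50, adjusted p = 0.45). It was -4.46 in rRPE against RPE (-9.17 to 0.25, adjusted p = 0.45) and -4.33 with both retinectomy groups together (unadjusted p = 0.039, adjusted p = 0.35). Zeros make these values larger than the ratio of the group means, which were 15.5 in t-rRPE, 90.7 in rRPE and 143 in RPE. The sizes depend on the pseudocount and on 1 library: in rRPE against RPE the value was -2.94 with a pseudocount of 5, -0.66 with edgeR, and -7.16 without rRPE replicate 1 (adjusted p = 0.16).

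Summed markers of neighbouring tissue were lower in t-rRPE than in RPE, as *LAMA4* was. Within rRPE the highest mesenchyme sums went with the most *LAMA4*, and within t-rRPE they went with 0 reads of it. The summed normalized count of the 14 endothelial genes found of 17 was 4518, 3977 and 6895 in t-rRPE, 5915, 5742 and 5929 in rRPE, and 7527, 13756 and 14772 in RPE, so both retinectomy groups lay under RPE. *CDH5*, the vascular endothelial cadherin, was a DEG in both comparisons (log2 fold change -2.16, adjusted p = 0.027 in t-rRPE, and -2.33, adjusted p = 0.013 in rRPE), while *PECAM1*, another endothelial adhesion gene, had values of -0.04 and 0.15. Between 0 and 1 of the 14 endothelial genes stood at 0 in a library. The 15 periocular mesenchyme genes found of 16 summed to 11725, 9898 and 12248 in t-rRPE, 14700, 13016 and 12252 in rRPE, and 13234, 15844 and 18840 in RPE. One gene, *COL1A2*, a chain of collagen I, made up 62.1% to 83.3% of this sum in the retinectomy libraries and 36.0% to 48.3% in RPE, and its own log2 fold changes were 0.33 in t-rRPE and 0.47 in rRPE (adjusted p = 0.46 and 0.27). The other 14 summed to 1953, 2551 and 3824 in t-rRPE, 5571, 4004 and 2509 in rRPE, and 6848, 10144 and 10512 in RPE, so without *COL1A2* both retinectomy groups lay under RPE. This sum was formed after the values were seen, and with *COL1A2* kept the rRPE sums overlapped those of RPE. Of the 15, *PRRX2*, a homeobox gene of mesenchyme, fell in t-rRPE (-3.34, adjusted p = 0.034) and with both groups together (-2.60, adjusted p = 0.038), and no other gene of the list was called. *PDGFRB*, a receptor that marks mural cells, was at 0 in 8 of the 9 libraries. *COL1A1*, the partner chain of *COL1A2*, lay under RPE in all retinectomy libraries, as did 3.3% of all genes. It was not called (-2.63 in t-rRPE and -1.58 in rRPE, adjusted p = 0.11 and 0.35). In rRPE replicate 1, the library with the most *LAMA4*, the endothelial sum was 5915, within the range of the other retinectomy libraries, and the mesenchyme sums of 14700 with *COL1A2* and 5571 without it were the highest of them. In t-rRPE replicate 3, which held 0 reads of *LAMA4*, the endothelial sum of 6895 was the highest of t-rRPE. So were its mesenchyme sums of 12248 with *COL1A2* and 3824 without it. The part of these tissues in the *LAMA4* values was not tested.

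**Figure D2:**
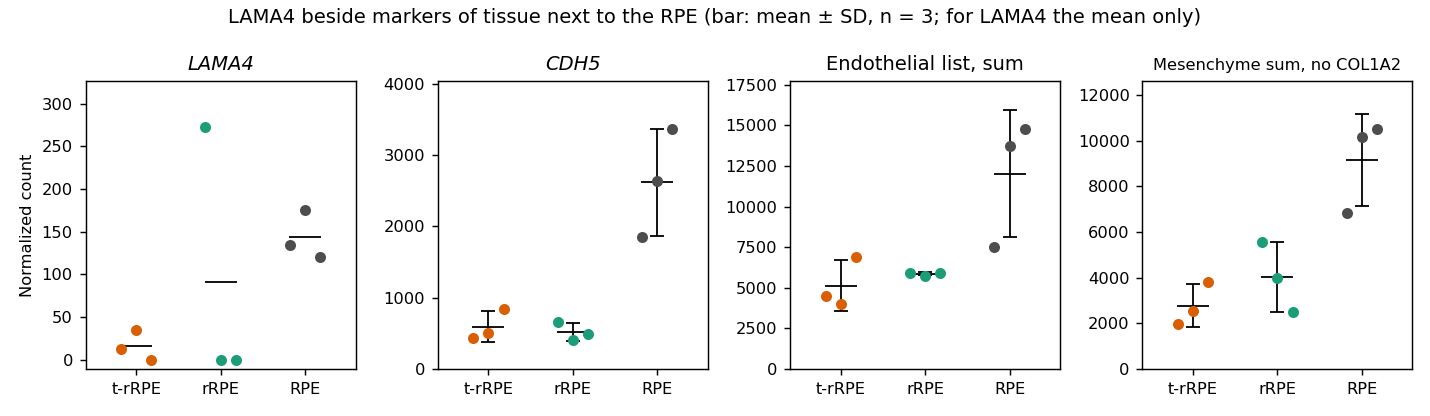
Normalized counts (vertical axes, linear) of *LAMA4* and *CDH5*, and summed normalized counts of the endothelial list and of the periocular mesenchyme list without *COL1A2*, in t-rRPE, rRPE and RPE; points are libraries and bars the mean ± SD (n = 3), or the mean alone for *LAMA4*. The *CDH5*, endothelial and mesenchyme values of all 6 retinectomy libraries lie under the 3 RPE libraries, while *LAMA4* has 1 retinectomy library at 272, over all 3. The mesenchyme sum without *COL1A2* was formed after the values were seen, and with *COL1A2* kept the rRPE sums overlap those of RPE.

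*LAMB1* encodes the beta chain that pairs with each of these alpha chains. Its normalized counts were 24544, 11552 and 16918 in t-rRPE, 16241, 18581 and 22825 in rRPE, and 13495, 19110 and 19335 in RPE. The RPE range sat inside that of t-rRPE and overlapped that of rRPE. The log2 fold change was -0.02 in t-rRPE against RPE (95% confidence interval -0.57 to 0.53, adjusted p = 1) and 0.16 in rRPE against RPE (-0.40 to 0.71, adjusted p = 0.86). The first of these changed sign under several settings.

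*LAMC1* encodes the gamma chain common to most laminins, which carries the site that nidogen binds. It stood at 3240, 2756 and 2001 in t-rRPE, 2445, 2538 and 3435 in rRPE, and 3368, 2949 and 4066 in RPE. The lowest 2 libraries of each retinectomy group lay under every RPE library and the highest lay among them. Both fitted values were negative, -0.39 in t-rRPE (95% confidence interval -0.90 to 0.12, adjusted p = 0.53) and -0.31 in rRPE (-0.82 to 0.20, adjusted p = 0.69), and they stayed negative under every alternative tried.

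*NID1*, which encodes nidogen-1, the linker between laminin and collagen IV, was the only member whose 2 retinectomy groups did not overlap. Normalized counts were 1412, 1552 and 1216 in rRPE, 2619, 3990 and 1591 in t-rRPE, and 2230, 1659 and 2101 in RPE. The 3 rRPE libraries were the lowest of all 9, although t-rRPE replicate 3 was close over the highest of them. *NID1* was 1 of 8 members whose rRPE libraries all lay under those of t-rRPE, as did 5.68% of all genes, and 1 of 8 whose rRPE libraries all lay under those of RPE, as did 8.94% of all genes. The log2 fold change in rRPE against t-rRPE was -0.88 (SE 0.31, 95% confidence interval -1.56 to -0.21, unadjusted p = 0.015), and the adjusted p of 0.40 did not pass. In rRPE against RPE it was -0.51 (-1.19 to 0.16, adjusted p = 0.58) and in t-rRPE against RPE 0.37 (-0.31 to 1.04, adjusted p = 0.67). Without t-rRPE replicate 2, the library with the most *NID1* and the highest lens sum, 411341, the value in rRPE against t-rRPE was -0.56 (adjusted p = 0.51). The part of the lens-list transcripts in this value was not tested. The lowest adjusted p that any member reached under any setting, 0.10 with DESeq2, belonged to this comparison.

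*HSPG2* encodes perlecan, whose heparan sulfate chains bind FGF2. Its normalized counts were 3216, 3167 and 4211 in t-rRPE, 4090, 4263 and 4779 in rRPE, and 3710, 5133 and 4714 in RPE. The rRPE libraries lay within the RPE range, and 2 of 3 t-rRPE libraries lay under it. The log2 fold change was -0.36 in t-rRPE against RPE (95% confidence interval -0.76 to 0.05, adjusted p = 0.47), -0.04 in rRPE against RPE (-0.45 to 0.37, adjusted p = 0.98) and 0.32 in rRPE against t-rRPE (-0.09 to 0.73, adjusted p = 0.65).

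*AGRN* encodes agrin, which binds the laminin gamma-1 chain at one end and dystroglycan at the other. It stood at 3721, 2215 and 3430 in t-rRPE, 3055, 2834 and 2397 in rRPE, and 4191, 3007 and 3520 in RPE. The groups overlapped in each comparison, with 2 of 3 rRPE libraries under the lowest RPE library. The fitted values were -0.22 in t-rRPE against RPE (95% confidence interval -0.72 to 0.29, adjusted p = 0.73) and -0.37 in rRPE against RPE (-0.87 to 0.14, adjusted p = 0.61).

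**Figure D3:**
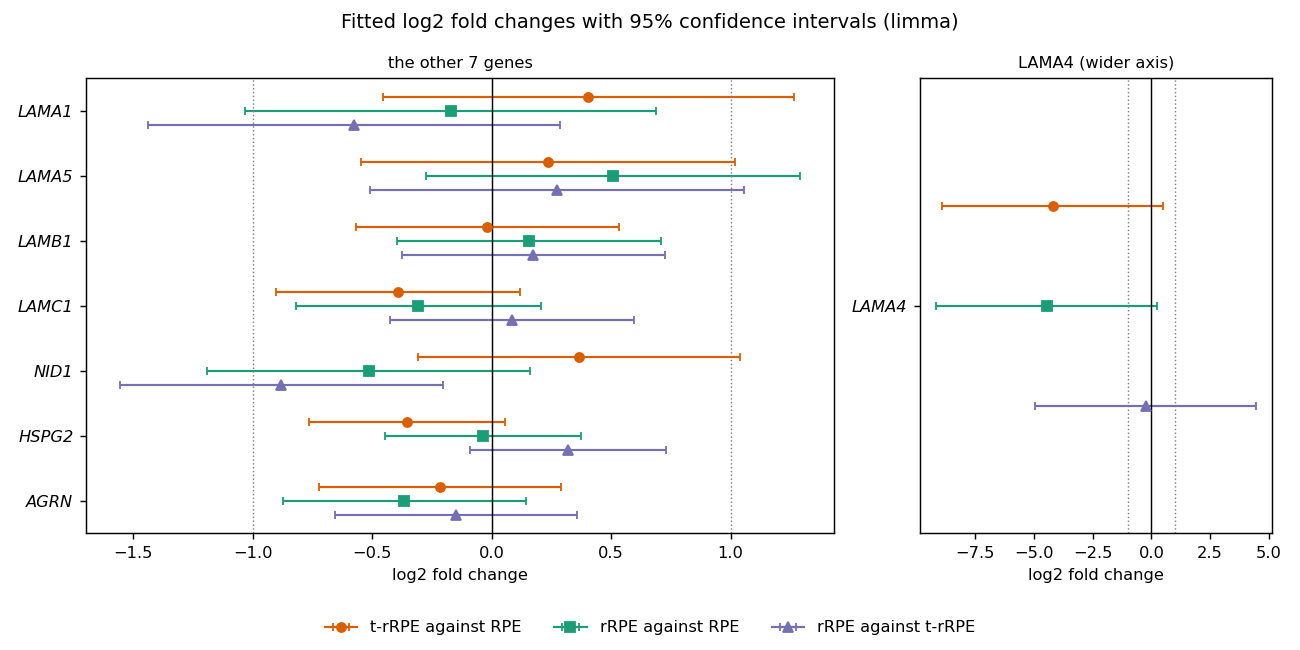
Log2 fold changes (horizontal axes) fitted with limma for the 8 genes in t-rRPE against RPE, rRPE against RPE and rRPE against t-rRPE, with 95% confidence intervals; dotted lines mark the threshold of 1 in either direction, and *LAMA4* has a wider axis of its own. The intervals of *LAMB1*, *LAMC1*, *HSPG2* and *AGRN* lie inside the dotted lines, and that of *NID1* in rRPE against t-rRPE, -1.56 to -0.21, is the only one plotted that does not reach 0.

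The precision differed between members. For *LAMB1*, *LAMC1*, *HSPG2* and *AGRN*, 4 of the 8, all 3 pairwise 95% confidence intervals lay between -1 and 1, so that a change of the size asked of a DEG lay outside them. For *LAMA1*, *LAMA5*, *NID1* and *LAMA4* none of the 3 intervals did so, and a change of that size could be neither shown nor set aside at this number of embryos. The within-group SD of the log2 values was 0.20 for *HSPG2*, 0.29 for *LAMC1* and for *AGRN*, 0.38 for *LAMB1*, 0.42 for *NID1*, 0.50 for *LAMA5*, 0.63 for *LAMA1* and 3.11 for *LAMA4*. Over the 7628 genes with a mean normalized count of at least 500 the median was 0.35, with quartiles of 0.24 and 0.50. *LAMA1*, and by a small margin *LAMA5*, thus varied more between libraries than 3 in 4 of them. *LAMA4* has a lower mean and is not in that set.

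Over the 8 members, the fitted change was negative for 5 of 8 in t-rRPE against RPE, 6 of 8 in rRPE against RPE and 4 of 8 in rRPE against t-rRPE, where 48.5% of all genes were negative in each. The medians were -0.12, -0.24 and -0.03, and the median of all genes was 0 in each.

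Ratios within a library do not depend on its size factor. The log2 ratio of each member to *LAMC1* was therefore taken in every library and set to 0 at the RPE mean, as a description with no test. The ratios of *LAMA4*, which had no read in several libraries, are not given. The fitted changes of *LAMC1* itself were negative, -0.39 in t-rRPE and -0.31 in rRPE against RPE, which raises the ratios of these groups. For *NID1* this ratio was 0.49, 1.33 and 0.46 in t-rRPE, 0.00, 0.08 and -0.71 in rRPE, and 0.20, -0.04 and -0.16 in RPE. All t-rRPE libraries lay over RPE, as did 16.8% of all genes against *LAMC1*, and all rRPE libraries lay under t-rRPE, as did 6% of all genes. For *LAMB1* it was 0.61, -0.25 and 0.76 in t-rRPE, 0.42, 0.56 and 0.42 in rRPE, and -0.31, 0.38 and -0.07 in RPE. The rRPE libraries lay over RPE by a small margin, as did 16.3% of all genes. For *LAMA1* it ran 0.83, -0.12 and 1.68 in t-rRPE, -0.53, 0.44 and 0.49 in rRPE, and 0.12, 0.37 and -0.49 in RPE, with overlap throughout.

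The pattern of each member over the 9 libraries was set beside those of other genes. Likeness was measured as the root mean square difference of centred log2 levels, in which 0 means the same pattern, over 9058 genes with a mean normalized count of at least 100. The nearest pair of members was *LAMB1* and *HSPG2* at 0.32, where the median over all genes searched was 0.54 from *LAMB1* and 0.49 from *HSPG2*. The nearest genes to *LAMB1* were *RPS6KA1* (0.11) and *CCDC61* (0.12), and those to *HSPG2* were *PPIG* and *MAP4* (0.10 each). A search over 9058 genes reaches smaller values than one over the members, so these neighbours do not show whether the members share a pattern. The nearest genes to *LAMC1* were *DNAJA3* and *RBM34* (0.14 each), and those to *AGRN* were *FAHD2A* (0.14) and *POLE4* (0.15). For *NID1* they were *CWF19L2* and *PPME1* (0.23 each), for *LAMA5* *TMEM259* (0.18) and *NUP58* (0.20), and for *LAMA1* *NAPEPLD* (0.25) and *TCF7L2* (0.26). No gene came close to *LAMA4*, where *SYTL2* was nearest (1.63). Genes with little spread give small values of this measure, and all libraries share 1 normalization.

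Among other laminin chains, 3 of 7 listed genes were found, and 0 were called in any comparison. *LAMB2*, the beta chain of laminins at synapses and in kidney, stood at 2468, 2817 and 2629 in rRPE, 2279, 6490 and 3466 in t-rRPE, and 5426, 5538 and 4266 in RPE. The rRPE libraries lay under those of RPE, as did 8.94% of all genes, with a log2 fold change of -0.94 (SE 0.31, unadjusted p = 0.011, adjusted p = 0.22). *LAMA3*, the alpha chain of laminin-332 in skin, held 18.4, 20.5 and 63.9 in t-rRPE, 0, 0 and 16.4 in rRPE, and 0 in all RPE libraries. Its t-rRPE mean was 11.9-fold the level of 3 reads in RPE. That floor covers counting error only and leaves out the spread between libraries. In limma, t-rRPE against RPE had an unadjusted p of 0.0052 and an adjusted p of 0.20. *LAMB4* was low and variable, at 20.3 to 197 normalized counts over all libraries.

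Of 25 other basement membrane genes, 17 were found, and 1 was called: *FREM1*, for an extracellular protein of the Fraser complex that anchors epithelia. It held 1308, 1703 and 1732 in t-rRPE, 2193, 761 and 1271 in rRPE, and 651, 368 and 194 in RPE. All retinectomy libraries lay over all RPE libraries, as did 2.84% of all genes. *FREM1* rose with both retinectomy groups together (log2 fold change 1.98, SE 0.41, adjusted p = 0.0498), and this call was lost without any 1 of the 9 libraries (adjusted p 0.074 to 0.27) and under 7 of the 11 other settings, edgeR among them (0.095). Against RPE, t-rRPE (2.12, adjusted p = 0.085) and rRPE (1.84, adjusted p = 0.10) were each called by DESeq2 alone (0.0027 and 0.0075). *COL4A1*, a chain of the main collagen IV, went the other way without passing the test. It held 1321, 2063 and 2785 in t-rRPE, 2855, 2816 and 2275 in rRPE, and 3743, 5490 and 6257 in RPE, and all retinectomy libraries lay under all RPE libraries, as did 3.3% of all genes. The log2 fold change was -1.36 in t-rRPE (adjusted p = 0.063), -0.94 in rRPE (adjusted p = 0.17) and -1.15 with both together (adjusted p = 0.055). The last was called with a pseudocount of 5 (0.049), after upper-quartile rescaling (0.045) and by DESeq2 (5.2e-04), which also called t-rRPE (6.3e-04). *COL4A2*, its partner chain, was also under RPE in all retinectomy libraries, as were 3.3% of all genes. Its values were -0.56 in t-rRPE (adjusted p = 0.40) and -0.74 in rRPE (adjusted p = 0.24). Over the 17 genes, the fitted change was negative for 8 in t-rRPE and 7 in rRPE against RPE, where 48.5% of all genes were. The medians were 0.04 and 0.27. All retinectomy libraries lay over RPE for 2 of the 17 and under it for 2, where 2.84% and 3.3% of all genes did. The endothelial and mesenchyme (without *COL1A2*) sums given above were lower in all retinectomy libraries than in RPE, and the lens sums were higher. With *COL1A2* kept, the mesenchyme sums of rRPE and RPE overlapped. The part of these transcripts in the values of *FREM1*, *COL4A1* and *COL4A2* was not tested.

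Of 15 receptor genes, 13 were found and 0 were called. The fitted change was negative for 7 of 13 in t-rRPE and 4 of 13 in rRPE against RPE, where 48.5% of all genes were. *ITGA6*, an integrin alpha chain of the list, had log2 fold changes of -0.71 in t-rRPE and -0.34 in rRPE (adjusted p = 0.30 and 0.69). Its t-rRPE libraries lay under those of RPE, as did 7.83% of all genes. Dystroglycan, *DAG1*, had log2 fold changes of -0.41 in t-rRPE and -0.43 in rRPE against RPE, and the integrin beta-1 gene *ITGB1* was close to level, at -0.03 (95% confidence interval -0.30 to 0.25) and 0.12 (-0.15 to 0.40). The syndecan gene *SDC3*, for a cell surface heparan sulfate proteoglycan, held 1747, 1775 and 1130 in t-rRPE, 1348, 1379 and 1464 in rRPE, and 903, 781 and 859 in RPE. All its retinectomy libraries lay over all RPE libraries, as did 2.84% of all genes. The log2 fold changes were 0.84 in t-rRPE (adjusted p = 0.21) and 0.72 in rRPE (adjusted p = 0.25), under the threshold of 1. *ITGA1*, an integrin alpha chain that binds collagen and laminin, held 4174, 3618 and 2883 in rRPE against 2243, 1854 and 1764 in RPE (0.86, adjusted p = 0.21).

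Laminin and agrin bind sugar chains on dystroglycan, and 14 of 19 genes for building those chains were found. *POMT1*, an O-mannosyltransferase gene, was the 1 that was called. It held 1999, 2146 and 2811 in t-rRPE, 1663, 1475 and 2151 in rRPE, and 586, 842 and 1052 in RPE. All retinectomy libraries thus lay over all RPE libraries, as did 2.84% of all genes. *POMT1* rose in t-rRPE against RPE (log2 fold change 1.51, SE 0.28, adjusted p = 0.040) and with both groups together (1.31, SE 0.24, adjusted p = 0.031). In rRPE against RPE it had a value of 1.11 (adjusted p = 0.094), and the difference between the 2 groups was -0.40 (adjusted p = 0.73). Both calls were lost without any 1 of the 9 libraries (adjusted p 0.078 to 0.17 in t-rRPE and 0.059 to 0.16 with both together) and with edgeR (0.062 and 0.055) and limma without the trend (0.15 and 0.12), and that in t-rRPE also with only the groups compared (0.15). The rRPE value was called by DESeq2 alone (0.0082). *POMT2*, the other O-mannosyltransferase gene of the list, went the other way. Its log2 fold changes in limma were -0.84 in t-rRPE and -0.66 in rRPE against RPE (adjusted p = 0.52 and 0.69). The part of the lens-list and endothelial-list transcripts given above in the *POMT1* values was likewise not tested. *LARGE2*, which extends the laminin-binding glycan, held 4414, 5235 and 5733 in rRPE, 4008, 4006 and 3118 in t-rRPE, and 3402, 2914 and 3226 in RPE, with log2 fold changes of 0.68 in rRPE (adjusted p = 0.11) and 0.22 in t-rRPE (adjusted p = 0.67) against RPE. The fitted change of this list was positive for 11 and negative for 3 of 14 genes in each comparison with RPE, where 48.5% of all genes were negative. The medians were 0.21 in t-rRPE and 0.33 in rRPE against 0 over all genes, and neither the count nor the medians were tested.

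Of 24 enzymes that build or trim heparan sulfate, 19 were found and 0 were called. The 6-O-sulfotransferase gene *HS6ST1* held 2210, 3619 and 2808 in rRPE, against 2236, 1533 and 1525 in RPE (log2 fold change 0.70, adjusted p = 0.31). These groups overlapped, and the value in t-rRPE was 0.38 (adjusted p = 0.61). The 6-O-endosulfatase gene *SULF2*, whose product removes such sulfates, held 279, 563 and 444 in t-rRPE, against 933, 674 and 975 in RPE (-1.04, adjusted p = 0.39). Its value in rRPE was -0.85 (adjusted p = 0.50). The other endosulfatase gene of the list, *SULF1*, went the other way in t-rRPE. It held 4041, 771 and 2875 there, against 961, 1557 and 1047 in RPE (0.84, adjusted p = 0.56), and had a value of 0.08 in rRPE (adjusted p = 0.99). The medians of the list were -0.15 in t-rRPE and 0.00 in rRPE, against 0 over all genes.

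**Figure D4:**
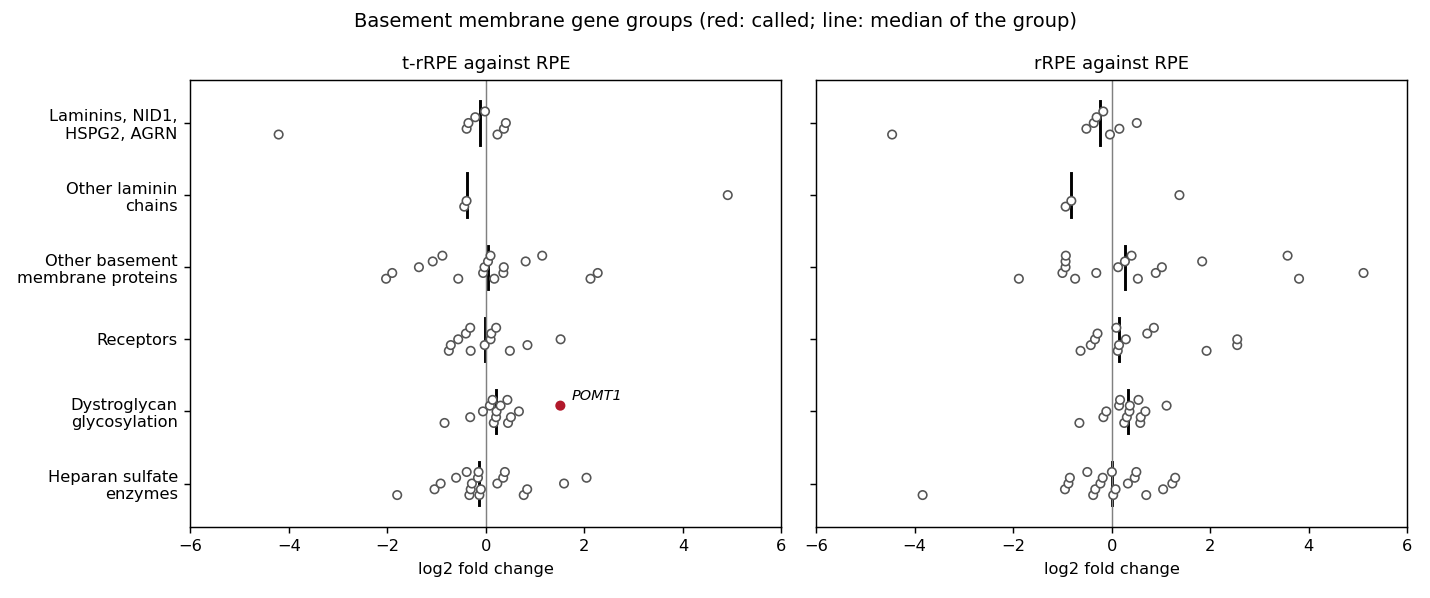
Log2 fold changes (horizontal axes) in t-rRPE against RPE and in rRPE against RPE for the 8 members and for the genes found in 5 related lists (rows); each circle is a gene, red circles are called, and black lines are medians. *POMT1*, at 1.51 in t-rRPE, is the only called gene in these panels, and the member far to the left in both, at -4.21 and -4.46, is *LAMA4*.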

How the data were processed

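RNA from laser-captured RPE of 9 chick embryos was read as single-end poly-A libraries. Per the labels and the methods of the study, the authors used Trim Galore 0.6.1, cutadapt 1.18, STAR 2.7.3, StringTie 2.0.4 and DESeq2 1.22.2 with the GRCg6a genome. The deposited signal is a normalized count, the reads of a gene divided by the library's DESeq2 size factor. It is not divided by gene length, so levels were not compared between genes. All values (100%) were whole multiples of 1 step in each library (tolerance 0.01), which gave back the reads.

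Genes whose normalized counts summed to 20 or more entered the tests (16535, with 100 left out). Values were log2(normalized count + 1), and limma's fold changes are on that scale. It understates the change of low genes, but where libraries of a group are at 0 it can give more than the ratio of the group means, as for *LAMA4*. Fold changes of edgeR and DESeq2, named as such, are on their own log2 scale of counts. limma 3.58.1 in R 4.3.3 (group means over all 9 libraries, eBayes with a trend) gave 4 comparisons, with Benjamini-Hochberg adjustment over all genes. edgeR 4.0.16 (quasi-likelihood) on the recovered reads called 48, 101 and 84 genes in t-rRPE, in rRPE and with both against RPE, and DESeq2 1.42.0 was a further alternative. The fits were tested on simulated data. Figures were drawn with matplotlib 3.10.9 in Python 3.11.15.

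Named genes are the 8 members, the genes of 5 related lists that were called, the 2 of each list with the lowest unadjusted p, the 2 genes most like each member, and the markers *CDH5*, *PECAM1*, *COL1A1*, *MITF* and *SPRY1*. A few genes that this rule names are not reported here. *LAMB4*, *COL4A2*, *DAG1*, *ITGB1*, *ITGA6*, *POMT2*, *SULF1*, *ASL1*, *PDGFRB*, *COL1A2* and *PRRX2* were named, and the mesenchyme sum without *COL1A2* was taken, after their values were seen. The members and lists were chosen with earlier results of these data known. Listed genes counted as not found had no row under that name. Reads were counted without strand, and gene models overlap in the GRCg7b annotation for *COL4A1* with *COL4A2*, and for *LAMA4*, *LAMB1*, *AGRN* and *FREM1* with a non-coding RNA each, and for *LAMC1* with a microRNA, so reads of the overlapping parts cannot be told apart. The alternatives were 21: 12 other settings and each of the 9 libraries left out in turn.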

Additional observations from a re-analysis of the deposited data

How the results depend on the processing

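No member was called under any of the 21 alternatives: of 664 member values, 634 kept their direction and 30 were reversed, all for fitted changes of at most 0.25 in size. *LAMB1* in t-rRPE against RPE was 0.0203 after quantile normalization, 0.021 with edgeR and 0.0295 with DESeq2, and *LAMA4* in rRPE against t-rRPE was 0.35 with a pseudocount of 5, 2.54 with edgeR and 2.55 with DESeq2; the cause was not tested. DESeq2 gave no p for *LAMA4*. With single libraries left out, values crossed 0 in t-rRPE against RPE for *LAMA5* (-0.12 to 0.61), *LAMB1* (-0.29 to 0.25), *AGRN* (-0.36 to 0.0132) and *ITGA1* (-0.0348 to 0.51). They did so in rRPE against RPE for *LAMA1* (-0.51 to 0.25), *LAMB1* (-0.0147 to 0.27) and *HSPG2* (-0.17 to 0.0626). In rRPE against t-rRPE they did so for *LAMA4* (-2.95 to 1.10), *LAMB1* (-0.10 to 0.44), *LAMC1* (-0.11 to 0.24), *COL4A2* (-0.37 to 0.0238), *FREM1* (-0.67 to 0.0902) and *SULF2* (-0.24 to 0.43), and with both groups together for *LAMA1* (-0.0503 to 0.33), *LAMB1* (-0.10 to 0.20) and *NID1* (-0.24 to 0.10).

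Counts of DEGs over all genes moved more. In t-rRPE against RPE, 111 became 73 without the trend, 48 with edgeR, 503 with DESeq2, 64 with the replicate block and 0 with only the groups compared (1689 at an unadjusted p under 0.05). In rRPE against RPE, 170 became 71 without the trend, 101 with edgeR and 569 with DESeq2. In rRPE against t-rRPE, 9 became 31 without the trend, 235 with DESeq2 and 0 with only the groups compared (1276 unadjusted). With both groups together, 147 became 83, 84 and 600 in the same order of 3 tools. With single libraries left out the counts ran 0 to 109, 0 to 187, 0 to 1 and 34 to 162. Deviations of same-numbered libraries from their group means correlated weakly (r -0.04 to 0.07 over 9 pairs), beside -0.07 to 0.03 over 18 other pairs. With 3 libraries in each group, these values cannot show whether the numbers pair the libraries. With the replicate block 0 members were called and the call of *FREM1* was lost (adjusted p = 0.056). The planned alpha chain shares per kilobase were not run, since no coding lengths were used here.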
